A study of Homo sapiens with 10 samples.

Results

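Stathmin, a group of tubulins and several proteins of the neuronal cytoskeleton were followed as 10 genes out of the 58302 in the table: STMN1, TUBB3, TUBA1A, TUBB2A, TUBB2B, TUBB4B, TUBB6, MAP1B, MAP2 and INA. They were chosen by name and by measured values, since STMN1 and TUBB3 were known to be higher in the siSHIP2 libraries of KYSE-410, so the values of that contrast are given for the 10 genes as a description with no test. All 10 passed the filter on low values, INA through the KYSE-30 libraries alone. The cells were KYSE-410 and KYSE-30, established lines from human esophageal squamous cell carcinoma, each collected 48 h after a small interfering RNA (siRNA) was introduced. The siRNA named siSHIP2 (HSS_105471) is directed against INPPL1, which encodes the lipid phosphatase SHIP2, and siCT is a non-targeting control that every comparison uses. KYSE-410 had 3 siCT and 3 siSHIP2 libraries and KYSE-30 had 2 of each, all from total RNA, and another siRNA against INPPL1 in KYSE-410 was not analysed here. Because 1 siRNA was used, an effect of losing SHIP2 and another effect of that siRNA cannot be told apart. Whether the numbered replicates came from separate cultures is not stated in the labels, and p-values therefore refer to the spread among these libraries, which may be technical.

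Microtubules are hollow polymers of alpha and beta tubulin dimers, and vertebrates carry several genes for each subunit whose products mix in the same polymer. TUBB3, TUBB2A, TUBB2B and TUBA1A are the isotypes best known from neurons, and TUBB3 is widely used as a neuronal marker although many carcinomas also express it. Stathmin, the product of STMN1, binds free tubulin dimers and promotes the shrinking of microtubules until it is phosphorylated in mitosis. MAP1B and MAP2 bind along microtubules in axons and dendrites, and INA encodes internexin, a neuronal intermediate filament protein.

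Promoter sequences are shown for 5 of the genes because their levels followed different courses: STMN1, TUBB3 and TUBA1A were higher in KYSE-410 with siSHIP2, TUBB4B was lower there, and INA separated the lines. Each runs 5′ to 3′ from 250 bases before to 50 bases after the RefSeq start nearest to the start of a principal transcript, on GRCh38.p14 as given by RefSeq. Capitals mark exact matches on either strand to CCAAT (read as ATTGG where it lies on the other strand), to the E-box CACGTG, to the E2F-type site TTTGGCGC or its variant form TTTCCCGC, or to the TATA-type words TATAAA and also TATATA.
STMN1, chr1:25906370-25906669, minus strand: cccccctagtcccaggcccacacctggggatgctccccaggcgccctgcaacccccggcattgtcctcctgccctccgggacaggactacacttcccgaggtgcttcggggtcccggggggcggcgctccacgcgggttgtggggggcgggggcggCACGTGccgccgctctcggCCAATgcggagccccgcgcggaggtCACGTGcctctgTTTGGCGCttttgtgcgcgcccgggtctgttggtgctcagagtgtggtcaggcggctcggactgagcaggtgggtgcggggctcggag
TUBB3, chr16:89923092-89923391, plus strand: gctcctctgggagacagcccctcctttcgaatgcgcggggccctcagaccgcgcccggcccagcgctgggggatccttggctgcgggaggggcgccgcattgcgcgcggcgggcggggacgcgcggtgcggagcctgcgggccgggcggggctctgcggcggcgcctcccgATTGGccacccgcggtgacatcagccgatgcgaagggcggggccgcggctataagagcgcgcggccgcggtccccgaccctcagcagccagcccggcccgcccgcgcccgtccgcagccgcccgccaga
TUBA1A, chr12:49189031-49189330, minus strand: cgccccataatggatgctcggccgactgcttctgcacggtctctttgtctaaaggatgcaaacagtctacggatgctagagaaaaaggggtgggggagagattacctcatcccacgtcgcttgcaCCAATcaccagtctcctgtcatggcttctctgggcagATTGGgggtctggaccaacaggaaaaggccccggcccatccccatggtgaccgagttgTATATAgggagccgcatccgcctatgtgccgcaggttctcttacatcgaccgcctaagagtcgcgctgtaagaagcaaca
TUBB4B, chr9:137241037-137241336, plus strand: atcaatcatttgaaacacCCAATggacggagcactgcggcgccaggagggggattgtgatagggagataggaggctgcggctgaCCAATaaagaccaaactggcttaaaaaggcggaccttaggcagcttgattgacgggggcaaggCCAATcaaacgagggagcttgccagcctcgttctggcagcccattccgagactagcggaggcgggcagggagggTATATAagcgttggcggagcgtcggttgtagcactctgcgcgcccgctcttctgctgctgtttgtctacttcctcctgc
INA, chr10:103276888-103277187, plus strand: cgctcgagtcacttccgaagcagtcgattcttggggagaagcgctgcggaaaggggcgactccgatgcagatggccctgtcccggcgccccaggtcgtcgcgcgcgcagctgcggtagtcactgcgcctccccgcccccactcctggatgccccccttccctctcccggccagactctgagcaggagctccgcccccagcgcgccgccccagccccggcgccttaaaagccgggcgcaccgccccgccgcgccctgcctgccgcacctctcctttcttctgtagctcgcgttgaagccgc

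The STMN1 window held 1 CCAAT, 2 CACGTG and 1 TTTGGCGC, the last of these a form of the E2F site. Of 35116 RefSeq promoter windows of the same length, 34.6% held CCAAT, 7.26% held CACGTG and 0.652% held TTTGGCGC. TUBB3 held 1 CCAAT, TUBA1A held 2 with a TATATA in the window, and TUBB4B held 3 with a TATATA, a motif found in 3.99% of windows. TTTCCCGC (1.63% of windows) and TATAAA (11.5%) were in none of the 5 windows. No motif was matched in the INA window. Windows of the other genes are not shown. MAP1B, also higher in KYSE-410 with siSHIP2, held 1 TATAAA and no CCAAT, and so did TUBB2A. TUBB6, lower there, and TUBB2B held 1 CCAAT each. MAP2, for which the first listed RefSeq start was taken, held no match. TUBA1A, higher in KYSE-410 with siSHIP2, and TUBB4B, lower there, both held CCAAT and TATATA. Whether motifs go with the response was not tested. A match is a description of letters and not a measured binding site.

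Levels are in CPM, counts per 1 M counts of the library, as deposited by the authors. The tables behave as if counts had been scaled to about 20 M per library and rounded up, and the reads before that step were estimated from the values at 18.5 to 25.8 M per library. The targeted gene INPPL1 stood at 107, 108 and 109 CPM in KYSE-410 with siCT and at 44.7, 37.3 and 39.1 CPM with siSHIP2. In KYSE-30 it stood at 39.9 and 36.2 CPM with siCT and at 23.2 and 24.5 CPM with siSHIP2, so the mean that remained was 37.4% of control in KYSE-410 and 62.8% in KYSE-30. Of the 8 squamous markers, 7 were measured above the filter, with summed levels of 279 to 294 CPM in KYSE-410 siCT and 342 to 400 CPM in KYSE-30 siCT. Most of the KYSE-30 sum came from SFN alone. KRT5, a basal keratin, stood at siCT means of 13.4 CPM in KYSE-410 and 0.2 CPM in KYSE-30, and PKP1 did not pass the filter. Of 6 neuroendocrine markers 1 passed the filter, and their sum did not exceed 1.60 CPM in any library.

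STMN1 (ENSG00000117632, chromosome 1, 25884181 to 25906991, minus strand, GRCh38) was measured at 99.3, 103 and 107 CPM in KYSE-410 with siCT and at 251, 272 and 269 CPM with siSHIP2. The group means were 103 ± 4.0 and 264 ± 11.7 CPM (SD, n = 3), a log2 difference of 1.34 on the log2(CPM + 1) scale (SE 0.0497). The groups did not overlap. In KYSE-30 the gene stood at 228 and 242 CPM with siCT and at 245 and 251 CPM with siSHIP2. Every KYSE-410 siSHIP2 library was thus above both KYSE-30 siCT libraries, while the KYSE-410 siCT libraries were the 3 lowest of the 10. The order of group means was KYSE-410 siCT, KYSE-30 siCT, KYSE-30 siSHIP2 and KYSE-410 siSHIP2, and the last pair overlapped.

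TUBB3 (ENSG00000258947, chromosome 16, 89921392 to 89938761, plus strand), the class III beta tubulin, stood at 40.7, 40.0 and 40.2 CPM in KYSE-410 with siCT and at 92.8, 103 and 91.6 CPM with siSHIP2. The group means were 40.3 ± 0.389 and 95.8 ± 6.31 CPM (SD, n = 3), a log2 difference of 1.23 (SE 0.055). In KYSE-30 it stood at 84.0 and 86.0 CPM with siCT and at 98.3 and 105 CPM with siSHIP2. Both KYSE-30 siSHIP2 libraries were above both siCT libraries, by a log2 difference of the means of 0.26 (SE 0.0674) that missed the threshold (limma adjusted p = 0.056). That p passed under 4 of 19 alternatives, with a lowest value of 0.035.

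TUBA1A, the alpha tubulin most associated with young neurons, stood at 112, 103 and 102 CPM in KYSE-410 with siCT and at 230, 247 and 222 CPM with siSHIP2 (log2 1.13, SE 0.0543). KYSE-30 held 117 and 117 CPM with siCT and 126 and 117 CPM with siSHIP2. The 7 libraries other than the KYSE-410 siSHIP2 libraries thus lay between 102 and 126 CPM. MAP1B, a large microtubule-binding protein of growing axons, stood at 10.5, 9.34 and 9.29 CPM in KYSE-410 with siCT and at 20.1, 24.3 and 16.8 CPM with siSHIP2 (log2 0.99, SE 0.113). None of its siSHIP2 libraries fell to the siCT level. KYSE-30 held 10.7 and 12.5 CPM with siCT and 13.3 and 11.8 CPM with siSHIP2, and these groups overlapped.

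**Figure D1:**
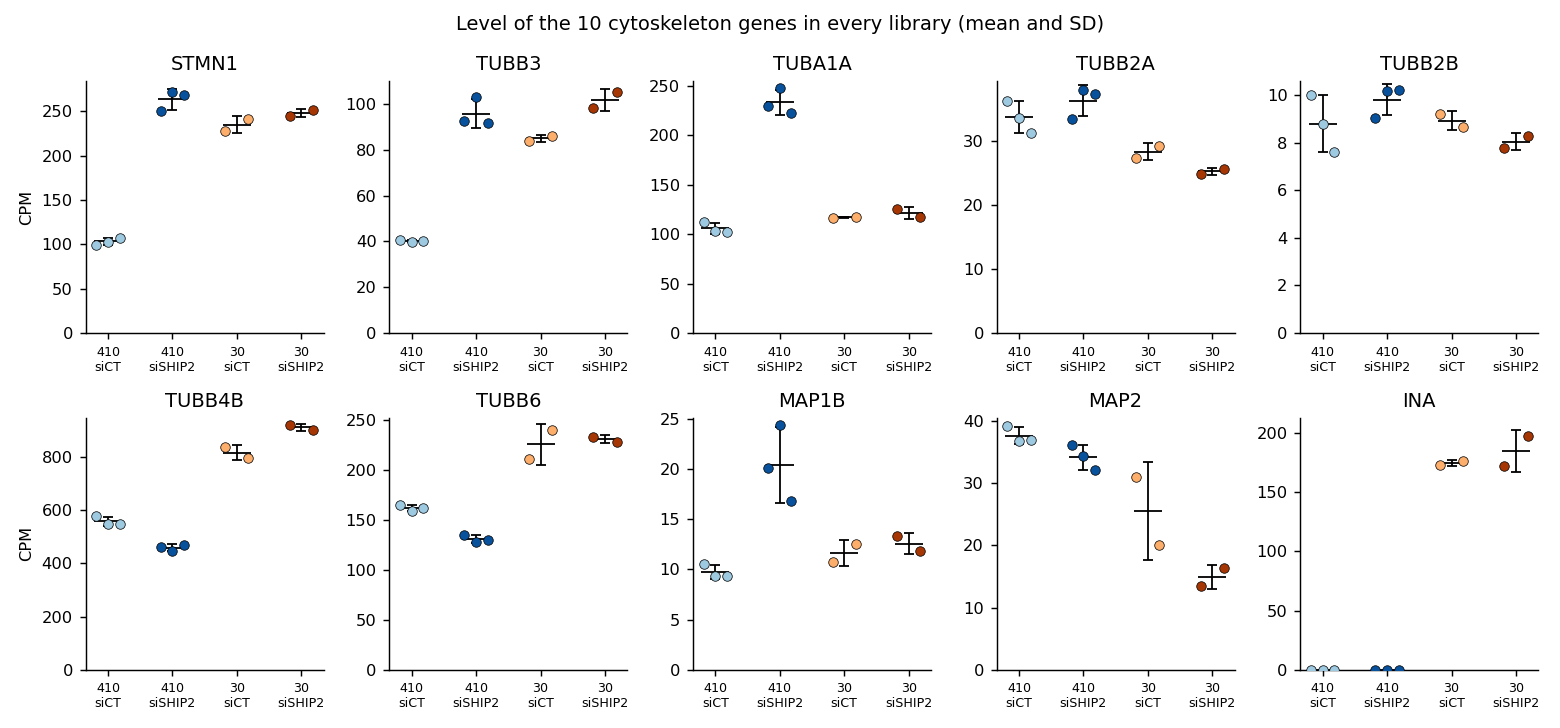
CPM of each of the 10 genes (linear axis from 0) in every library of KYSE-410 and KYSE-30 with siCT or siSHIP2; points are libraries, horizontal ticks group means and bars SD (n = 3 for KYSE-410, n = 2 for KYSE-30). STMN1, TUBB3, TUBA1A and MAP1B were higher with siSHIP2 in KYSE-410, and INA was near 0 in KYSE-410 and above 170 CPM in KYSE-30.

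The abundant beta tubulins went the other way in KYSE-410. TUBB4B, a beta tubulin of most tissues, stood at 577, 548 and 549 CPM with siCT and at 462, 445 and 470 CPM with siSHIP2 (log2 difference −0.28, SE 0.0461). In KYSE-30 it stood at 837 and 795 CPM with siCT and at 920 and 902 CPM with siSHIP2. Every siSHIP2 library was therefore below every siCT library in KYSE-410 and above every siCT library in KYSE-30, where the log2 difference of 0.16 (SE 0.0565) did not pass (limma adjusted p = 0.14). TUBB6, the class V beta tubulin, stood at 165, 159 and 162 CPM in KYSE-410 with siCT and at 135, 128 and 130 CPM with siSHIP2 (log2 −0.31, SE 0.0514). In KYSE-30 its siCT libraries, at 211 and 240 CPM, enclosed the siSHIP2 libraries at 233 and 228 CPM.

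TUBB2A and TUBB2B, neighbouring and nearly identical class II beta tubulin genes, were close to level. TUBB2A stood at 36.3, 33.7 and 31.2 CPM in KYSE-410 with siCT and at 33.5, 37.9 and 37.4 CPM with siSHIP2, groups that overlapped (log2 0.10, SE 0.07). Under TMM, relative log expression or upper quartile scaling, or with a library left out, this small difference ranged from −0.00 to 0.16. In KYSE-30 it stood at 27.4 and 29.3 CPM with siCT and at 24.9 and 25.7 CPM with siSHIP2 (log2 −0.16, SE 0.0857, limma adjusted p = 0.36). TUBB2B lay between 7.60 and 10.2 CPM in all 10 libraries. How reads that match both copies were counted is not given in the sources used here, so the split between these genes is uncertain.

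MAP2, a dendritic microtubule-binding protein, was the 1 gene of the 10 that passed the test in KYSE-30, where 2.36% of all 20466 tested genes passed (482 genes, 166 higher and 316 lower with siSHIP2). It stood at 31.1 and 19.99 CPM with siCT and at 13.5 and 16.3 CPM with siSHIP2. Between group means of 25.5 ± 7.84 and 14.9 ± 1.98 CPM (SD, n = 2), MAP2 fell with a log2 difference of −0.71 (SE 0.14, limma adjusted p = 0.019). The siCT libraries differed from each other by more than the nearer siCT library differed from the siSHIP2 libraries. Without siCT replicate 1 the log2 difference was −0.40 with an adjusted p of 0.18, without siSHIP2 replicate 1 it was −0.58 with 0.29, and a fit on the KYSE-30 libraries alone gave an adjusted p of 0.37. In KYSE-410, MAP2 stood at 39.2, 36.7 and 37.0 CPM with siCT and at 36.1, 34.3 and 32.1 CPM with siSHIP2, a log2 difference of −0.14 (SE 0.115).

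For the remaining genes the KYSE-30 differences did not pass: log2 0.08 (SE 0.0608) for STMN1, 0.05 (SE 0.0665) for TUBA1A, 0.03 (SE 0.063) for TUBB6, 0.10 (SE 0.138) for MAP1B, −0.13 (SE 0.122) for TUBB2B and 0.08 (SE 0.111) for INA, with limma adjusted p from 0.57 to 0.85. A p that misses the threshold does not show that these genes stayed level, and 2 libraries a group limit what could be seen. The difference between the log2 effects in KYSE-410 and KYSE-30 was 1.27 (SE 0.0785) for STMN1, 0.97 (SE 0.087) for TUBB3, 1.08 (SE 0.0858) for TUBA1A and 0.88 (SE 0.178) for MAP1B. It was −0.44 (SE 0.0729) for TUBB4B and −0.34 (SE 0.0813) for TUBB6. These differences contain the KYSE-410 contrast by which the genes were chosen and are given as values with no test.

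**Figure D2:**
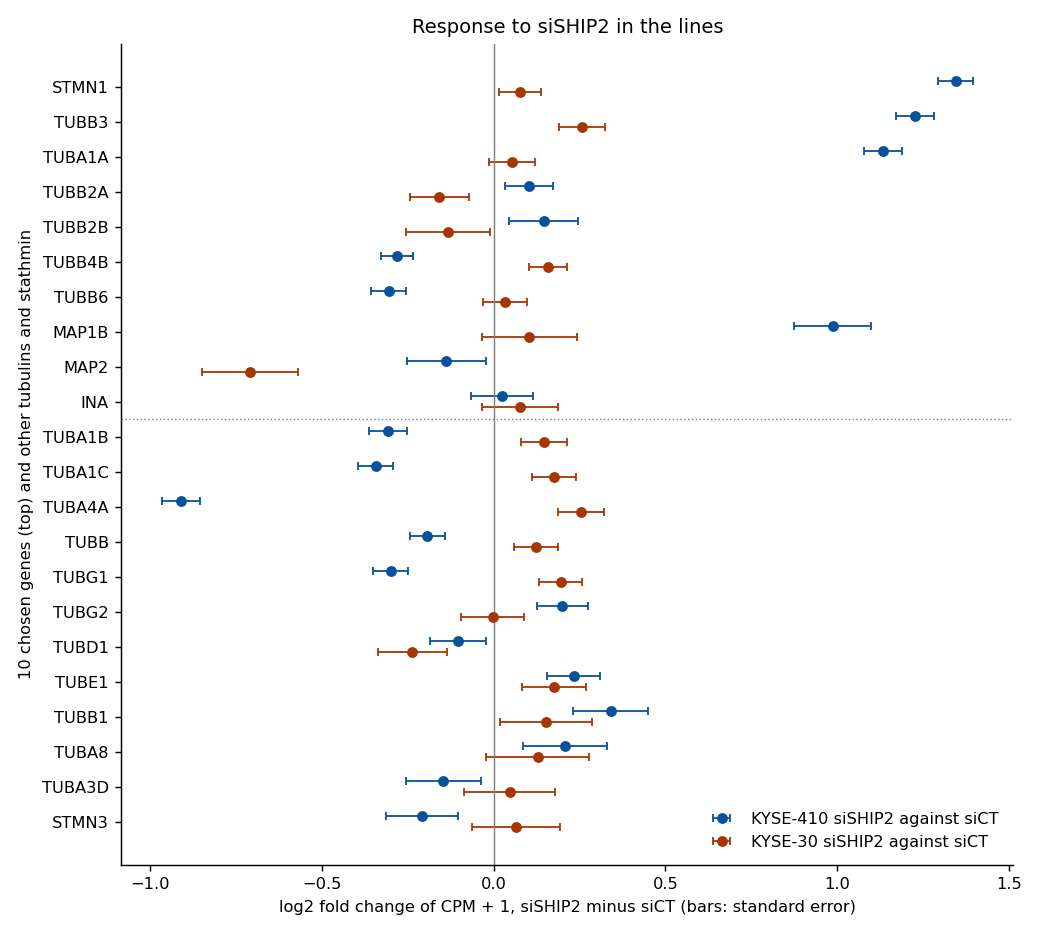
log2 fold change of CPM + 1 (siSHIP2 minus siCT) with its standard error in KYSE-410 (blue) and KYSE-30 (brown) for the 10 genes, above the dotted line, and for other tubulins and STMN3, below it. STMN1, TUBB3, TUBA1A and MAP1B lie between 0.99 and 1.34 in KYSE-410 and between 0.05 and 0.26 in KYSE-30, while TUBA4A lies at −0.91 and 0.25.

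INA was at 0 in all 3 KYSE-410 siCT libraries and in 2 siSHIP2 libraries, and at 0.05 CPM in the other, which is the value of 1 scaled count. In KYSE-30 it stood at 173 and 177 CPM with siCT and at 172 and 198 CPM with siSHIP2. No fold is given for a gene listed at 0 in a table without read counts. NEFH, the heavy neurofilament subunit, stood at siCT means of 0.05 CPM in KYSE-410 and 40.6 CPM in KYSE-30 and likewise passed the filter through the KYSE-30 libraries alone. The other neurofilament genes NEFL and NEFM and peripherin (PRPH) did not pass the filter on low values.

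With siCT, 75.9% of all tested genes differed between KYSE-410 and KYSE-30, so a gene that differed is not unusual here. This comparison uses the KYSE-410 siCT libraries that also served the contrast behind the choice of genes, so STMN1 and TUBB3 are given as values with no test. The p-values given for other genes of the 10 rest on the same libraries and are not independent of that contrast. The log2 difference, KYSE-410 minus KYSE-30, was −1.18 (SE 0.0555) for STMN1 and −1.06 (SE 0.0615) for TUBB3. It was −0.55 (SE 0.0515, limma adjusted p = 4.8e-08) for TUBB4B and −0.48 (SE 0.0575, adjusted p = 1.1e-06) for TUBB6. MAP2 was higher in KYSE-410 by 0.57 (SE 0.128, adjusted p = 0.00067) and TUBB2A by 0.24 (SE 0.0782, adjusted p = 0.011). The TUBA1A call (−0.14, adjusted p = 0.040) held in 10 of 18 alternatives and that of TUBB2A in 15 of 18. MAP1B (−0.23, adjusted p = 0.10) and TUBB2B (−0.02, adjusted p = 0.85) did not pass.

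Levels of different genes were compared per kilobase of annotated exon. In KYSE-410 siCT, TUBB4B led the 10 genes at 264 ± 7.74 CPM per kilobase, followed by TUBB6 (39.3 ± 0.708) and TUBA1A (30.9 ± 1.63). TUBB2A (19.5 ± 1.46) and STMN1 (16.5 ± 0.638) were next, above TUBB3 (9.10 ± 0.0879), and MAP2 and MAP1B were at 3.26 ± 0.118 and 0.769 ± 0.0537 (SD, n = 3). In KYSE-410 siSHIP2, TUBA1A (68.1 ± 3.77) and STMN1 (42.1 ± 1.86) stood above TUBB6 (31.7 ± 0.923). TUBB3 (21.6 ± 1.42) reached the level of TUBB2A (21.0 ± 1.39), from which it did not differ beyond the spread. That order rests on the annotated exon bases of all transcripts, 4430 for TUBB3 and 1727 for TUBB2A. In CPM, TUBB3 was above TUBB2A in KYSE-410 with siCT (40.3 and 33.7) and with siSHIP2 (95.8 and 36.3). In KYSE-30 siCT, INA (54.2 ± 0.782) and TUBB6 (54.9 ± 4.97, n = 2) did not differ beyond their spread and stood between TUBB4B (387 ± 14.1) and STMN1 (37.6 ± 1.52).

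As a share of all beta tubulin genes per kilobase, TUBB3 held 1.22% ± 0.0331 in KYSE-410 siCT and 3.3% ± 0.327 in siSHIP2 (SD, n = 3), and 1.98% ± 0.0308 and 2.16% ± 0.136 in KYSE-30 (n = 2). TUBB, the main beta tubulin of dividing cells, held 54.9% and 54.7% of the KYSE-410 groups and 50.4% and 50.2% of the KYSE-30 groups. TUBB4B went from 35.4% ± 0.409 to 33.1% ± 0.231 in KYSE-410 and stood at 39.8% ± 1.48 and 40.6% ± 0.0211 in KYSE-30. The summed beta tubulins were at 747 ± 26.4 CPM per kilobase in KYSE-410 siCT and 656 ± 20.7 in siSHIP2, and at 971 ± 0.687 and 1062 ± 15.1 in KYSE-30. Among alpha tubulins TUBA1A held 4.74% ± 0.0782 in KYSE-410 siCT and 12.3% ± 1.12 in siSHIP2, while TUBA4A, a brain and platelet isotype, held 7.54% ± 0.111 and 4.70% ± 0.217. The rarer TUBA1A thus exceeded TUBA4A in all 3 KYSE-410 siSHIP2 libraries and lay below it in the other groups. In KYSE-30 TUBA1A held 6.24% ± 0.163 and 5.81% ± 0.0223 (n = 2).

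**Figure D3:**
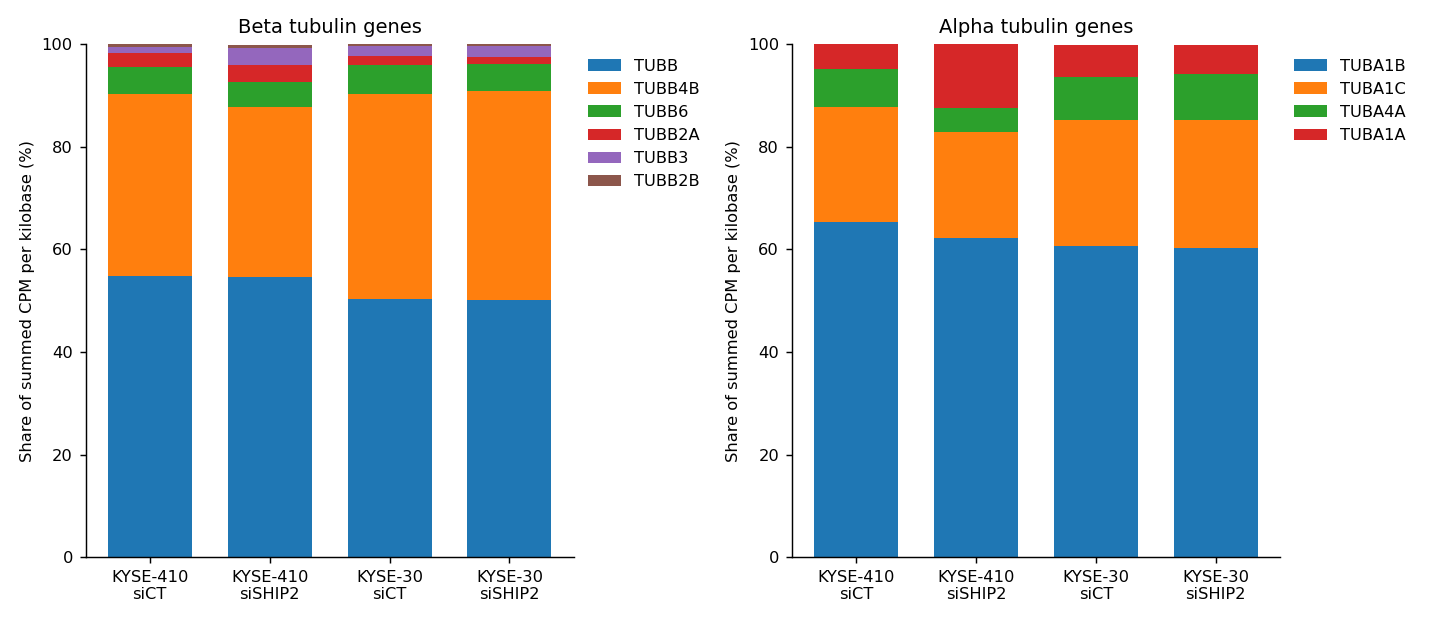
Mean share (linear axis, %) of each beta tubulin gene (left) and alpha tubulin gene (right) in the summed CPM per kilobase of its family, by group; genes with under 0.2% are not drawn. TUBB3 went from 1.22% to 3.3% of beta and TUBA1A from 4.74% to 12.3% of alpha tubulin in KYSE-410, while TUBB kept close to 55%.

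The remaining tubulins were listed as a family. In KYSE-410, 11 of the 16 listed tubulins outside the 10 genes passed the filter, and 3 were higher and 5 lower with siSHIP2, beside 49.9% of all tested genes called (30.6% higher and 19.3% lower). TUBA4A fell from 200 to 106 CPM (log2 −0.91, SE 0.0548, limma adjusted p = 5.7e-09). TUBA1B, the main alpha tubulin of dividing cells, fell from 1522 to 1231 CPM (−0.31, adjusted p = 0.00020), TUBA1C from 673 to 530 CPM (−0.34, adjusted p = 4.5e-05) and TUBB from 1378 to 1205 CPM (−0.19, adjusted p = 0.0053). TUBG1, the gamma tubulin of the centrosome, fell from 104 to 84.4 CPM (−0.30, adjusted p = 0.00014). The higher calls were TUBB1 (2.2 to 3.0 CPM), TUBE1 (19.1 to 22.7 CPM) and TUBG2 (28.5 to 33.0 CPM), of which TUBB1 held under 2 of 3 other scalings and TUBE1 and TUBG2 under 0 of 3. STMN3, a neuronal stathmin, stood at 2.7 and 2.2 CPM in KYSE-410 and at 14.0 and 14.7 CPM in KYSE-30, and STMN2 and STMN4 did not pass the filter. Markers of dividing cells moved with these genes: of 12, 2 were higher and 9 lower in KYSE-410, beside 30.6% and 19.3% of all tested genes, and their summed level was 2561 to 2676 CPM in the siCT libraries and 1720 to 2088 CPM with siSHIP2. In KYSE-30 the sum was 3204 to 3323 and 3436 to 3557 CPM. Their part in the tubulin values was not tested.

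Beyond the tubulins, lists of tubulin folding, tubulin modification, microtubule-binding, intermediate filament and neuronal genes were counted. Over all 7 lists together, 95 of 118 genes outside the 10 passed the filter. In KYSE-410, 38 were higher and 29 lower with siSHIP2, 70.5% beside 49.9% of all tested genes, and the median log2 difference was 0.05 beside 0.07 over all tested genes. Under TMM scaling 24 were higher and 34 lower, so the balance of directions is not fixed by these data. Over all genes the counts were 6256 higher and 3949 lower as deposited and 4350 and 4952 under TMM scaling. In KYSE-30 none of the 95 passed the limma test. An unadjusted limma p under 0.05 was found for 20 of the 95, beside 3653 of all 20466 tested genes. The siSHIP2 effect differed between the lines for 44 of the 95 (46.3%), 24 higher and 20 lower in KYSE-410, beside 32.4% of all tested genes. The split was 13 and 25 under TMM scaling and 14 and 27 under relative log expression or upper quartile scaling, so this balance is not fixed either. The all-gene shares depend on the filter on low values. With a filter of 10 CPM, 7817 of 12199 tested genes were called in KYSE-410 and 5673 of 12199 for the difference between the lines. Whether the lists exceed genes of like level was not tested.

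Of 16 measured enzymes and partners that modify tubulin, 9 were higher and 4 lower in KYSE-410, and 8 were higher and 5 lower under TMM scaling. As deposited this was 81.25%, beside 49.9% of all tested genes (30.6% higher and 19.3% lower). The median log2 difference of the 16 was 0.29, beside 0.07 over all tested genes. VASH2 and VASH1, carboxypeptidases that remove the last tyrosine of alpha tubulin, went from 6.3 to 23.2 CPM (log2 1.73, SE 0.121, limma adjusted p = 2.4e-08) and from 5.2 to 11 CPM (0.94, SE 0.121, adjusted p = 9.1e-06). SVBP, their binding partner, rose from 12.2 to 18.1 CPM (0.53, adjusted p = 6.4e-05). TTL, which adds the tyrosine back, stood at 53.8 and 51.0 CPM (−0.07, adjusted p = 0.27). TTLL3, a glycine ligase, rose from 7.9 to 17.9 CPM (1.08) and ATAT1, the alpha tubulin acetyltransferase, from 13.7 to 20.7 CPM (0.57). TTLL12 fell from 103 to 73.2 CPM (−0.49), AGBL5, a deglutamylase, from 101 to 86.3 CPM (−0.22) and TTLL5, a glutamate ligase, from 73.9 to 60.5 CPM (−0.28). In KYSE-30 VASH2 was at 0.4 and 0.3 CPM, too low for a response to be seen, and it passed the filter through the KYSE-410 libraries alone. VASH1 stood at 6.7 and 6.6 CPM there, with a difference between the lines of 0.96 (adjusted p = 0.0012). TTLL7 had such a difference of 0.66, TTLL12 of −0.60 and TTLL4 of −0.35.

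Among microtubule-binding proteins 10 of 27 measured were higher and 10 lower in KYSE-410 (7 and 11 under TMM scaling). As deposited this was 74.1%, beside 49.9% of all tested genes (30.6% higher and 19.3% lower). MAP1A, the partner of MAP1B in mature neurons, went from 1.5 to 4.7 CPM (log2 1.2, SE 0.137, limma adjusted p = 2.7e-06), and the severing enzyme SPAST and the kinase MARK2 rose by 0.47 and 0.31. Of the lower genes, those with the smallest adjusted p were MAPRE3, CLASP2 and CLIP1: MAPRE3 fell from 56.8 to 31.4 CPM (−0.84, adjusted p = 1.1e-07), CLASP2 from 99.1 to 59.9 CPM (−0.72, adjusted p = 2.6e-07) and CLIP1 from 153 to 103 CPM (−0.56, adjusted p = 1.5e-06). CLIP2 and CLASP1, of the same families, were at log2 0.01 and 0.13 and did not pass. The doublecortin gene DCX did not pass the filter, and its relative DCLK1 was under 1 CPM in every group mean. Of the 21 measured folding factors 9 were higher and 5 lower, 66.7% beside 49.9% of all tested genes (4 and 7 under TMM scaling). The cofactors TBCC (22.4 to 36.8 CPM) and TBCEL (16.6 to 23.2 CPM) and the prefoldin subunit PFDN5 (115 to 141 CPM) rose, and the chaperonin subunits CCT7 (491 to 339 CPM) and CCT5 (701 to 618 CPM) and the cofactor TBCD (74.3 to 66.4 CPM) fell.

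**Figure D4:**
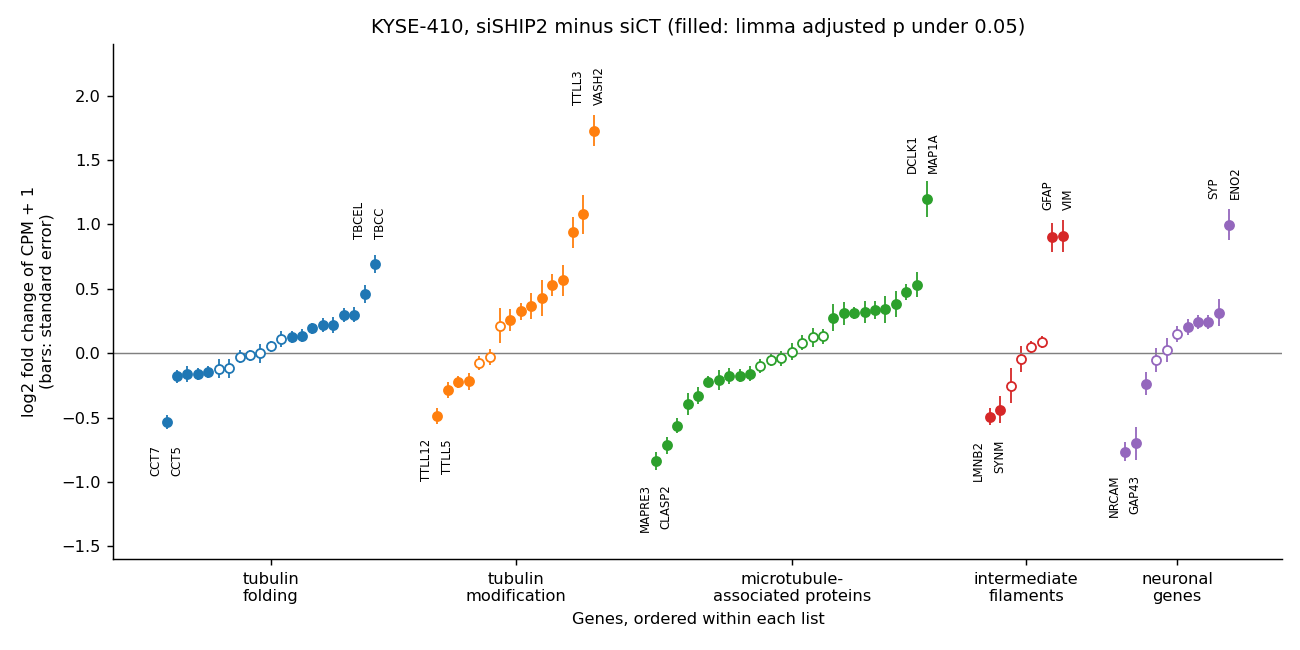
log2 fold change of CPM + 1 in KYSE-410 (siSHIP2 minus siCT, bars SE) for measured genes of 5 lists, ordered within each list; filled points passed limma at an adjusted p under 0.05, and the lowest and highest pair of each list are named. VASH2 at 1.73 and MAP1A at 1.2 lie above the other genes, and MAPRE3 at −0.84 below them.

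Intermediate filament and neuronal genes moved in both directions in KYSE-410. Of 8 measured intermediate filament genes 2 were higher and 2 lower, also under TMM scaling, which is 50% beside 49.9% of all tested genes. Of 20 listed neuronal genes 11 were measured, 5 higher and 3 lower, which is 72.7% (2 and 3 under TMM scaling). Over all tested genes 30.6% were higher and 19.3% lower. VIM, the mesenchymal filament protein vimentin, rose from 3.8 to 8.0 CPM (log2 0.91, limma adjusted p = 1.3e-05) and GFAP from 0.5 to 1.8 CPM (0.90), while LMNB2, a lamin, fell from 333 to 237 CPM (−0.49) and SYNM from 3.1 to 2.0 CPM (−0.44). ENO2, the neuronal enolase, rose from 3.8 to 8.5 CPM (1.00, adjusted p = 5.1e-06). The adhesion protein NRCAM fell from 87.9 to 51.3 CPM (−0.77, adjusted p = 4.2e-07), the growth cone protein GAP43 from 4.3 to 2.2 CPM (−0.70) and the synaptotagmin SYT1 from 50.9 to 43.1 CPM (−0.24). REST, the repressor of neuronal genes, stood at 91.6 and 109 CPM (0.24, adjusted p = 0.0014), and its partner RCOR1 at 88.7 and 105 CPM (0.24), calls that held under 1 of 3 scalings each.

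Levels of neuronal and filament genes with siCT are given for each line as a description, beside the 75.9% of all tested genes that differed between the lines. KYSE-30 was higher in VIM (3.8 CPM in KYSE-410 and 145 in KYSE-30, limma adjusted p = 5.6e-15), SYNM (3.1 and 53.9), L1CAM, a neural adhesion protein (2.7 and 57.9), and ENO2 (3.8 and 10.4), and CRMP1, which passed the filter through KYSE-30 alone, was listed at 0 in KYSE-410 siCT and at a mean of 4.0 CPM in KYSE-30. KYSE-410 was higher in DPYSL3, a collapsin response mediator (173 and 9.5 CPM, adjusted p = 2.6e-17), in SYT1 (50.9 and 4.0), NRCAM (87.9 and 15.6) and NES (1.6 and 0.7), and in REST (91.6 and 45.3 CPM, adjusted p = 1.8e-10). MAP6 (8.4 and 0.1 CPM) and VASH2 (6.3 and 0.4) passed the filter through KYSE-410 alone. Among other microtubule genes KYSE-410 was higher in MAPRE3 (56.8 and 16.5 CPM), CLASP2 (99.1 and 35.7), SIRT2 (41.2 and 19.3) and PFDN4 (66.3 and 24.8). KYSE-30 was higher in CCT6A (485 and 1472 CPM), CKAP5 (267 and 547), FIGN (11.6 and 31.4), AGTPBP1 (9.3 and 34.3) and TTLL4 (45.8 and 76.9).

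**Figure D5:**
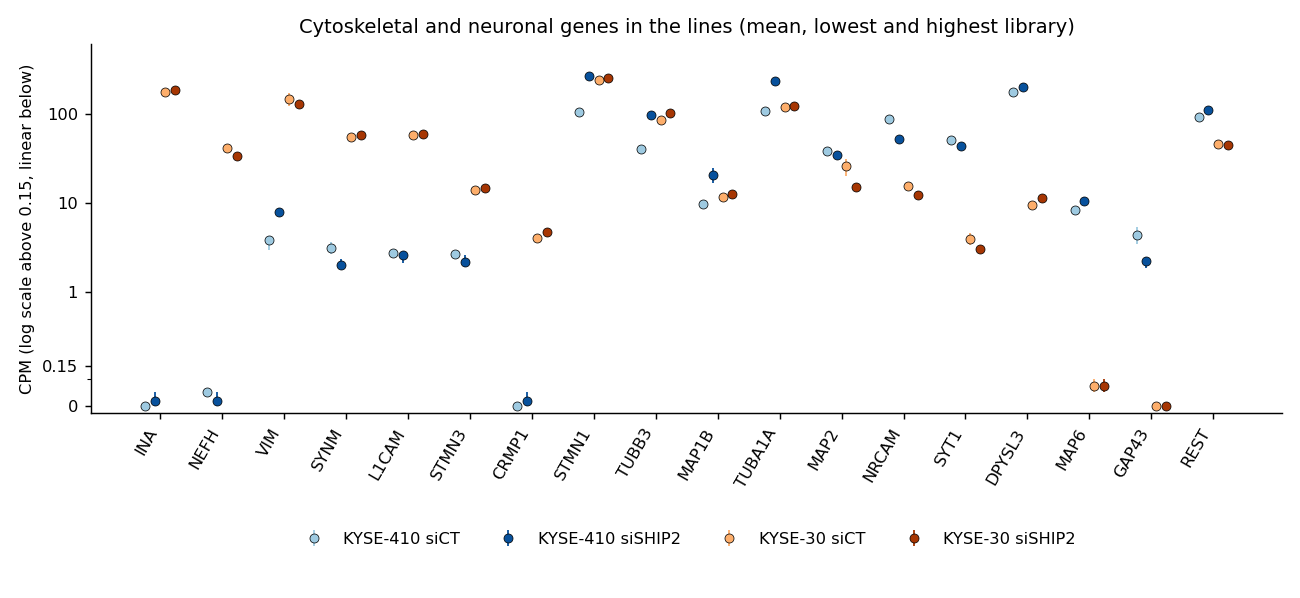
Mean CPM per group (log scale above 0.15 CPM, linear below) of neuronal and cytoskeletal genes, with bars from the lowest to the highest library; KYSE-410 is blue, KYSE-30 orange and brown, and the darker shade is siSHIP2. INA, NEFH, VIM, SYNM and L1CAM lie far lower in KYSE-410, and DPYSL3, SYT1 and MAP6 are higher there.

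Some reads of these genes may belong to overlapping genes, since how strand and overlap were handled in counting is not given in the sources used here. AC092143.1, a readthrough gene, shares 1584 exon bases with TUBB3, which is 35.8% of the TUBB3 exon bases. TUBB3 stood at 92.1% to 97.8% of the AC092143.1 level in every library, and the readthrough gene went from 43.3 to 98.2 CPM in KYSE-410, so these genes cannot be told apart. MIR3917, within STMN1, went from 3.60, 3.85 and 3.85 CPM to 9.35, 8.75 and 8.89 CPM in KYSE-410. TUBA1A shares 490 bases, 14.3% of its exon bases, with TUBA1C on the other strand, and these genes moved in opposite directions in KYSE-410. AFG3L2 covers 20.3% of the TUBB6 exon bases on the other strand and stood at 183, 185 and 184 CPM with siCT and at 154, 143 and 152 CPM with siSHIP2 in KYSE-410, a fall like that of TUBB6. PSMG4 (7.93% of TUBB2B) and FAM166A (5.87% of TUBB4B) overlap on the other strand as well. ATP5F1E covers 34.0% of the TUBB1 exon bases on the other strand. In KYSE-410 it stood at 238, 220 and 239 CPM with siCT and at 249, 264 and 275 CPM with siSHIP2, beside TUBB1 means of 2.2 and 3.0 CPM. Whether the TUBB1 values hold reads of ATP5F1E was not tested.

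The genes most like STMN1 were sought by the root mean square difference of log2(CPM + 1), each line set to its siCT mean, over 10 libraries and among 11189 other genes with a mean of at least 10 CPM. They were JUND (0.074), DNAL4 (0.079), CHMP1B (0.083), RNF44 (0.088) and KLF13 (0.098). JUND, a transcription factor of the AP-1 family, went from 11.5 to 31.6 CPM in KYSE-410 and stood at 29.2 and 31.4 CPM in KYSE-30. Closest to TUBB3 were the overlapping AC092143.1 (0.038), then ZCWPW1 (0.075), FAM109A (0.085), FAM214B (0.089) and WEE1 (0.089). WEE1, the kinase that restrains CDK1, went from 50.1 to 114 CPM in KYSE-410 and stood at 32.3 and 41.3 CPM in KYSE-30. These lists describe likeness in the change from the siCT mean of each line, not in level, over libraries that share 4 groups. They rest on the KYSE-410 contrast by which STMN1 and TUBB3 were chosen and are no test.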

How the data were processed

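Gene expression was measured in 10 libraries of KYSE-410 and KYSE-30, grouped by line and siRNA from the labels. Per the labels' protocols, RNA was extracted with DNase digestion and made into Ovation Solo RNA-Seq libraries. The submitters' processing notes name STAR 2.5.3a, HTSeq and hg38. The authors deposited CPM values for 58302 genes, 20208 of them at 0 in every library. Values below 20 CPM are whole multiples of about 0.05 CPM (tolerance 0.02 of a step), and some whole numbers are absent, which points to counts scaled to about 20 M and rounded up. No header states this, so no count model was run. Genes reaching 0.5 CPM in 2 or more libraries (20466) entered limma 3.58.1 (R 4.3.3) on log2(CPM + 1), with 4 group means over all 10 libraries and Benjamini-Hochberg adjustment over all of them at 0.05. This scale understates changes of low genes. The fit was tested on simulated data. Positions, exon lengths and overlaps come from GENCODE 29 (GRCh38), promoters from RefSeq. Python 3.11.15 did the rest.

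The 10 genes, the lists and the tests were chosen with earlier results of these data known. The named genes were the 10, INPPL1, overlapping genes, stathmins and tubulins, up to 3 per direction from each other list and comparison with the smallest adjusted p, and the 5 genes closest to STMN1 and to TUBB3. SVBP, TTL, ATAT1, CLIP2, CLASP1 and the markers of other cell types were added after their values were seen, and not all genes the rule names are described. Fibroblast markers were led by LUM (107 CPM in KYSE-410 siCT, listed at 0 in KYSE-30), and 1 of 5 immune markers passed the filter. Alternatives were other scalings, filters and pseudocount, each comparison alone, a replicate block and leaving out each library.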

Additional observations from a re-analysis of the deposited data

Results flagged for a closer look

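TUBB4B moved in opposite directions, with every siSHIP2 library below every siCT library in KYSE-410 and above every siCT library in KYSE-30. The difference of the log2 effects, KYSE-410 minus KYSE-30, was −0.44, and it was not tested because the gene was chosen with the KYSE-410 contrast known.

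Abundant tubulins outside the 10 genes differed between the lines in their response to siSHIP2 by limma's interaction term. The difference of log2 effects was −1.16 for TUBA4A (adjusted p = 4.2e-07), −0.52 for TUBA1C (0.00021), −0.45 for TUBA1B (0.00083), −0.32 for TUBB (0.0074) and −0.50 for TUBG1 (0.00026). In each case the KYSE-410 siSHIP2 mean was lower than control and the KYSE-30 siSHIP2 mean higher, and no KYSE-30 difference passed on its own. Antisense genes over TUBA1B, TUBA1C and TUBB moved with them: AC011603.2, with 80.2% of its exon bases within those of TUBA1B, stood at 1162 to 1242 CPM in KYSE-410 siCT and at 906 to 1006 CPM with siSHIP2. How strand was handled in counting is not given, so these values may hold reads of the tubulins, which was not tested.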

How the results depend on the processing

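The count tests planned for read counts were not run, because the table holds rescaled CPM. Direction was checked for the 10 genes, and no called difference among them reversed under the alternatives. Small differences that were not called changed sign (INA, MAP1B and TUBB6 in KYSE-30, TUBB2A in KYSE-410, TUBB2B between the lines, and INA in the difference between the lines). Over all results and alternatives, 731 values kept their side of the threshold or their size, 16 were weaker, 5 stronger and 54 moved. The 731 include sign changes of differences that were not called, as for INA, MAP1B and TUBB6 in KYSE-30. For pathway genes this tally compares only the total called. It does not show that their balance turned under TMM scaling, from 38 higher and 29 lower to 24 and 34 in KYSE-410, and from 24 and 20 to 13 and 25 for the difference between the lines. Pathway genes called in KYSE-30, 0 as reported above, numbered 1 with relative log expression scaling, 2 with a filter of 10 CPM and 0 to 3 with a library left out. Over all genes KYSE-30 had 482 calls, but 158 with TMM scaling, 78 with no filter, 0 with its 4 libraries alone (limma) and 15 to 812 with a library left out. These were 16 without siCT replicate 1 and 15 without siSHIP2 replicate 1 of KYSE-30, and 812 without siSHIP2 replicate 1 of KYSE-410. Between the lines with siCT, the TUBA1A call was lost without KYSE-410 siCT replicate 2 (adjusted p = 0.11) or 3 (0.13) and without KYSE-30 siCT replicate 1 (0.11) or 2 (0.12), with TMM scaling (log2 −0.08, 0.32), relative log expression scaling (0.14) and no filter (0.076), and that of TUBB2A without replicate 1 of KYSE-410 siCT (0.057) or KYSE-30 siCT (0.091) and with upper quartile scaling (0.057). TUBB3 in KYSE-30 passed without KYSE-410 siSHIP2 replicate 1 (0.039) or 2 (0.035), with upper quartile scaling (0.040) and with the filter of 10 CPM (0.043). The TUBB3 share of beta tubulin without division by exon length was 1.85% and 4.95% in KYSE-410 and 3.03% and 3.32% in KYSE-30. The cause was not tested. With 2 libraries a group, depth and number limit what KYSE-30 can show.

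Deviations of same-numbered libraries correlated at -0.00205, -0.236 and 0.221 in KYSE-410 and at -0.161 in KYSE-30. Not every library correlated best with its own number, and the largest value in KYSE-410 was 0.436, between siCT 2 and siSHIP2 1. With 2 libraries a group, crossed numbers in KYSE-30 give the same value with the other sign (0.161). The KYSE-30 value therefore cannot show whether replicate numbers pair the libraries. With the replicate block KYSE-30 had 71 calls, none of them pathway genes (3242 genes at an unadjusted p under 0.05), the KYSE-410 pathway count was 61, MAP2 in KYSE-30 had an adjusted p of 0.080 and TUBA1A between the lines 0.11. With the KYSE-30 siSHIP2 numbers crossed, an alternative chosen after seeing the data, the block gave 437 calls, 1 of them a pathway gene.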

Other observations

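Markers of squamous cells are described here, chosen after their values were seen. Of 7 measured, 3 were lower and 0 higher in KYSE-410, 42.9% beside 49.9% of all tested genes. In KYSE-30, 2 were lower and 0 higher, 28.6% beside 2.36% of all tested genes (1.54% lower). In KYSE-410 with siSHIP2 the basal keratin KRT5 fell from 13.4 to 3.4 CPM (log2 −1.79, limma adjusted p = 2.2e-06) and the wound keratin KRT6A from 5.3 to 1.1 CPM (−1.57, adjusted p = 1.6e-07). In KYSE-30 the transcription factors TP63 and SOX2 fell, from 46.2 to 31.1 CPM (−0.55, adjusted p = 0.014) and from 6.2 to 2.5 CPM (−1.04, adjusted p = 0.0035). Neither call held in a fit on the KYSE-30 libraries alone, which called 0 of all tested genes. In KYSE-410, TP63 stood at 90.5 and 83.9 CPM and SOX2 at 1.1 and 1.1 CPM, and neither passed. KRT14 (5.0 and 6.9 CPM), KRT6A (14.2 and 17.8) and SFN (256 and 273) had higher siSHIP2 means in KYSE-30 without passing. Of 6 measured glandular markers, 3 were lower and 1 higher in KYSE-410, 66.7% beside 49.9% of all tested genes. The trefoil peptide genes TFF1 and TFF2 fell from 6.5 to 2.7 CPM and from 15.2 to 9.4 CPM, villin (VIL1) rose from 13.3 to 21.4 CPM, and the summed list stood at 37.4 and 35.2 CPM.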
